A study of Mus musculus with 21 samples.

Results

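The genes described here are 36 genes of the interferon response, listed by name, measured by RNA sequencing of whole dorsal root ganglia of mice. A row for 35 of them was found in both deposited count tables, which share 24381 genes, and Irgm1 was not analysed here. By role, the 35 comprise 16 antiviral effectors, 8 regulators of transcription, feedback and ubiquitin conjugation, 4 genes of nucleic acid sensing, 4 interferon-inducible GTPases and 3 genes of antigen processing. Levels are in CPM, a gene's reads scaled to the size of its library and not to gene length, so that levels are compared between libraries and not between genes.

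Dorsal root ganglia hold the cell bodies of sensory neurons, with satellite glia, Schwann cells, vessels and macrophages. Every mouse carried a floxed Tmem45b, a gene for a transmembrane protein. It was present alone (Tmem45b-flox, flox below) or with Cre recombinase under Mrgprd (Tmem45b-flox::Mrgprd-cre, cKO below). Mrgprd encodes a receptor of one class of nonpeptidergic nociceptors, so Cre acts in a part of the neurons, and no group without the floxed allele was included. Untreated ganglia gave 13 libraries in 2 sets, named by their codes. The LDRG set has 3 flox (WT1_LDRG to WT3_LDRG) and 3 cKO libraries (KO1_LDRG to KO3_LDRG), and the con/ko set has 3 flox and 4 cKO libraries. The other 8 libraries, 4 flox and 4 cKO, came from a CFA model. The labels do not spell CFA out (it commonly stands for complete Freund's adjuvant, an inducer of inflammation), and they give neither its site nor a time. Codes of the con/ko set also hold a letter C (con_FC_3, ko_FC_1, ko_FC_2, ko_MC_2) or L (con_FL_1, con_ML_2, ko_ML_2), and F or M, with no explanation in the labels. Ages are not given, and the labels leave unsaid whether each library is 1 animal. The p-values therefore rest on the spread between these libraries, which may be partly technical.

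Interferons are secreted alarm signals of infection and injury. Type I interferons bind the receptor pair Ifnar1 and Ifnar2, whose kinases Jak1 and Tyk2 activate signalling factors, Stat2 among them. With Irf9 these form a complex that binds the interferon-stimulated response element in the promoters of antiviral genes. Interferon gamma acts through another receptor pair, Ifngr1 and Ifngr2, and is the classical inducer of guanylate-binding proteins, immunity-related GTPases and the immunoproteasome. Neurons, glia and macrophages of a ganglion can all respond, and in bulk RNA more responding cells cannot be told apart from more RNA per cell.

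The promoters below are shown because some of the members carry this element in their sequence, apart from any value measured here. Those printed were picked among members with a match. RefSeq promoters (build GRCm38.p6, 250 bases before to 50 bases after the start) were matched by symbol for 26 of the 35 measured members. The core of the interferon-stimulated response element, searched on both strands as GAAA, any 2 bases and GAAA, occurred in 13 of these 26 (50%), against 3.99% of 27025 genes with a promoter in that table. A match describes these letters and is no evidence of binding. In the 160 bases before the start of an antiviral effector with 3 overlapping matches (Isg15), one with 2 matches (Ifit3), one with 1 match (Rsad2) and 2 interferon-inducible GTPases with 1 match each (Gbp7, Igtp), capitals mark the bases of that core on either strand.
Isg15, chr4:156200819-156200978, minus strand: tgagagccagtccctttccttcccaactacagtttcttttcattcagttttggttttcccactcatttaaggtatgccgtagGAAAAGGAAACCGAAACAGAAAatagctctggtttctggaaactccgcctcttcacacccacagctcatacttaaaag
Ifit3, chr19:34583369-34583528, plus strand: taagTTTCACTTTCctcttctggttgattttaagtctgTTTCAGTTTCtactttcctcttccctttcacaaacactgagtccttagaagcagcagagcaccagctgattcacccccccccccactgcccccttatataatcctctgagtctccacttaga
Rsad2, chr12:26456453-26456612, minus strand: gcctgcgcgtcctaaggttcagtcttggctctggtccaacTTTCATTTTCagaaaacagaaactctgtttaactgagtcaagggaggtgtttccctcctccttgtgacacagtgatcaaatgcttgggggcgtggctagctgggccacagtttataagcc
Gbp7, chr3:142530176-142530335, plus strand: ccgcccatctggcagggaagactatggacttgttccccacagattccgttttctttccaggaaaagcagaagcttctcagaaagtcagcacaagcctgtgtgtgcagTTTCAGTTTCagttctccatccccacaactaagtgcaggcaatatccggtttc
Igtp, chr11:58199396-58199555, plus strand: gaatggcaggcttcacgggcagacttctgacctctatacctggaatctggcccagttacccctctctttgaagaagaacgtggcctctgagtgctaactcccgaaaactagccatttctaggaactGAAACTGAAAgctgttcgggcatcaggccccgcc
In Isg15 the match nearest the start began 66 bases before it, in Gbp7 53 bases and in Igtp 34 bases before it. Those of Rsad2 and Ifit3 lay farther away, at 120 and 122 bases. The members lie on 14 chromosomes in build mm10, some of them side by side. Ifit2, Ifit3 and Ifit1 are neighbours on chromosome 19, Gbp7, Gbp3 and Gbp2 on chromosome 3, and Psmb9, Tap1 and Psmb8 on chromosome 17. Dtx3l and Parp9 overlap on opposite strands by 682 bases and Psmb9 and Tap1 by 212, and Dhx58 shares 2637 bases with an antisense gene. Strand is not stated for the counting, so reads from such stretches cannot be told apart. Values of the Ifit, Gbp and Oas genes are uncertain to the extent that their close paralogs share reads.

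Libraries held between 53.4 M and 72.5 M counted reads, and the lowest count of a member in any library was 44 reads, for Mx1. Tmem45b, the targeted gene, lay at 124 to 179 CPM in the 6 untreated flox libraries and at 59.7 to 88.2 CPM in the 7 untreated cKO libraries. In the CFA libraries it did not separate the labels, at 65.5 to 136 CPM in flox and 62.6 to 108 CPM in cKO, so these are called libraries labelled flox or cKO. Neuron markers (8 genes, summed) were at 6890 to 7269 CPM in LDRG, 6255 to 7007 CPM in CFA and 5327 to 6223 CPM in con/ko libraries. Markers of blood cells differed between sets. The red cell list (6 genes) summed to 34.1 to 54.1 CPM in LDRG, 207 to 625.4 CPM in CFA and 1633 to 4469 CPM in con/ko libraries, and the neutrophil list (8 genes) to 1.61 to 5.62, 33.7 to 111 and 126 to 2257 CPM. Xist, a transcript of females, had at least 283 CPM in every CFA library and at most 0.33 CPM in every LDRG library. In the con/ko set it was at 283 to 322 CPM in the 4 F-coded libraries and did not exceed 0.21 CPM in the 3 M-coded. C-coded libraries are 3 F and 1 M, and L-coded 1 F and 2 M. Set, sex and treatment can therefore not be told apart between CFA and LDRG libraries, and con/ko against LDRG sets a mixed set against libraries without Xist.

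Most members were high in the same few libraries, also within groups, although roles differed in some libraries. Each member's log2 CPM was taken relative to its mean over the 21 libraries, and the median over members describes a library. In the LDRG set this median was 0.49 in WT1_LDRG, 0.79 in WT2_LDRG and 0.77 in KO2_LDRG, but 0.09 in WT3_LDRG, -0.02 in KO1_LDRG and 0.15 in KO3_LDRG. WT2_LDRG was above the mean of its set for all 35 members and KO2_LDRG for 34, so a high and a low state occurred in both genotypes. In the con/ko set con_FL_1 stood apart at 0.83, with the highest level of 33 of the 35 members. The other con/ko libraries lay between -0.80 (con_FC_3) and -0.10 (con_ML_2). Among CFA libraries CFA_CKO4 was highest at 0.53, with the top level for 25 members, and the rest ranged from -0.40 to 0.18. The roles did not always go together: in con_ML_2 the median was 0.27 for antigen processing and -0.25 for effectors, in ko_ML_2 0.48 and -0.22, and in CFA_CKO4 -0.11 and 0.62. On the same scale the median over 14083 genes, with a mean of at least 1 CPM and reads in every library, moved by at most 0.019. Scaling by TMM holds that median near 0, so it is no control for the members.

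**Figure D1:**
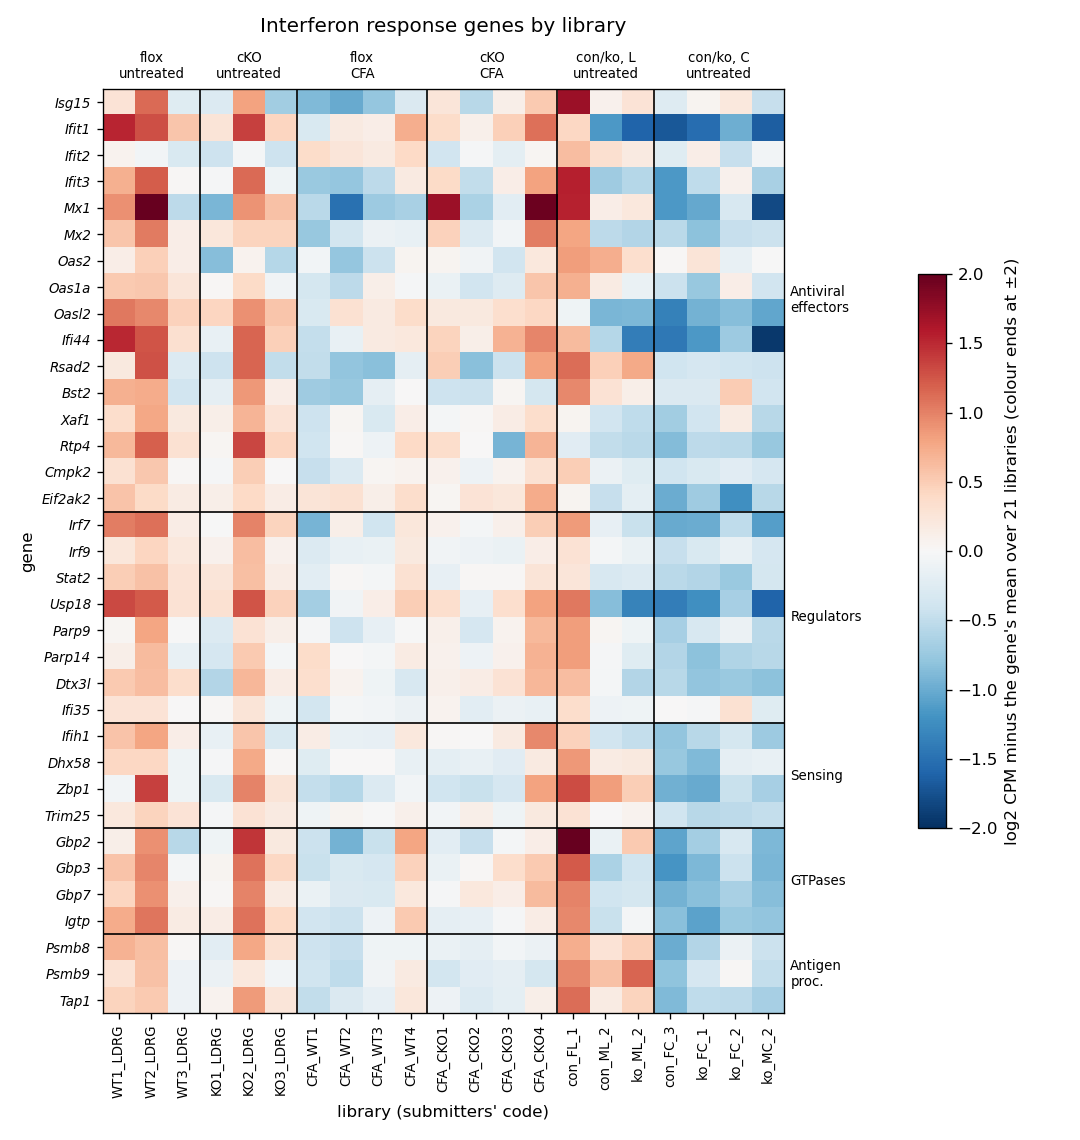
Each cell is 1 gene (rows, by role) in 1 library (columns, by code), coloured by log2 CPM minus that gene's mean over 21 libraries. Red columns that run through most rows mark WT1_LDRG, WT2_LDRG, KO2_LDRG, con_FL_1 and CFA_CKO4, and the 4 C-coded columns at the right are mostly blue.

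**Figure D2:**
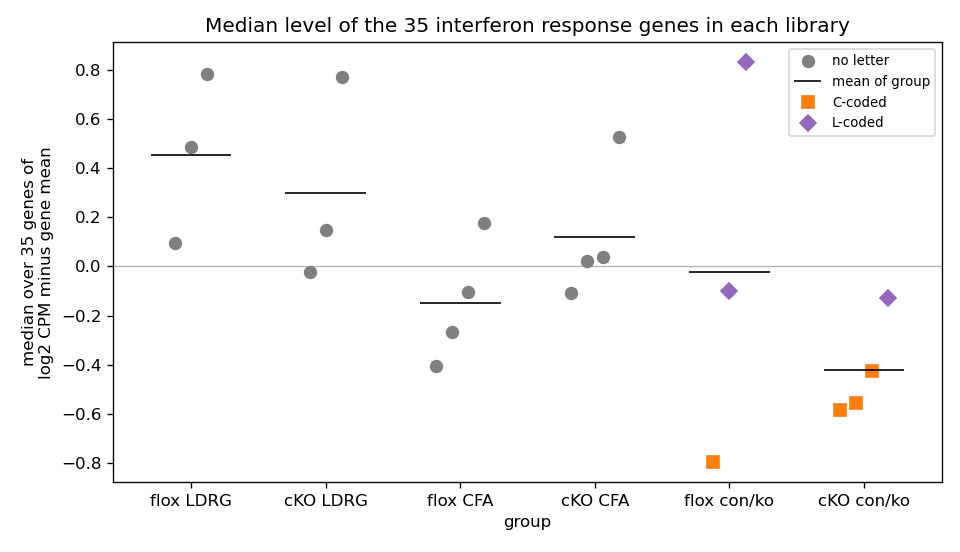
Each point is 1 library, placed by the median over the 35 genes of log2 CPM minus the gene's mean, with groups along the horizontal axis, lines at group means and colours for the code letters. Libraries of a group differ widely: flox con/ko runs from -0.80 to 0.83.

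The size of this variation differed between members. Mx1, a GTPase that blocks virus replication, spanned 14.2-fold between its lowest and highest library, Ifi44 10.8-fold, Gbp2 9.48-fold, Ifit1 9.36-fold and Usp18 7.63-fold. Ifi35 spanned 1.65-fold, Trim25 1.98-fold and Cmpk2 1.99-fold. Within groups the pooled SD of log2 CPM was 1.06 for Mx1, 0.85 for Gbp2, 0.72 for Ifit3 and 0.71 for Zbp1, and 0.18 for Ifi35, 0.21 for Trim25 and 0.21 for Irf9. A difference between groups of 3 or 4 libraries was thus resolved less well for Mx1 or Gbp2 than for Trim25 or Irf9. Ifit3, another effector of the Ifit family, was at 39.5 to 89.7 CPM in flox and 36.8 to 85.3 CPM in cKO LDRG libraries, at 22.9 to 44.3 and 27.7 to 68.1 CPM in CFA, and at 17.6 to 41.3 CPM in C-coded and 23.7 to 115 CPM in L-coded libraries. Ifih1 was at 17.0 to 26.9 and 12.6 to 22.9 CPM in LDRG, 13.9 to 17.9 and 15.7 to 30.3 CPM in CFA, 8.94 to 12.2 CPM in C-coded and 11.2 to 21.4 CPM in L-coded libraries. Every CFA library had more Ifih1 than every C-coded library, while the Ifit3 ranges of these libraries overlapped.

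The largest number of changed members lay between the sets of untreated libraries. Here 15 of 35 members fell and 0 rose in con/ko against LDRG libraries (edgeR quasi-likelihood test, adjusted p under 0.05, both genotypes averaged). The 15 are 42.9% of the members, near the 47% called among 16706 genes tested. All 15 were lower, where 21.1% of genes were called lower and 25.9% higher, and 31 of 35 members lay below 0, against 46.1% of genes. The median log2 difference was -0.40 over members and 0.04 over genes tested. Without con_FL_1 it was -0.83, with 20 members and 44.2% of genes called. With only the 3 M-coded con/ko libraries 16 members fell and 0 rose (median -0.55), where 39.8% of genes were called.

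Ifit1, which binds viral RNA that lacks host cap methylation, ranged in LDRG libraries from 56.8 CPM through a median of 92.2 to 137 CPM, and in con/ko libraries from 14.6 through 16.4 to 63.0 CPM. Only con_FL_1 reached the LDRG range. The difference was -1.93 on the log2 scale (SE 0.34, 3.80-fold lower, edgeR adjusted p = 0.000693). Oasl2, an oligoadenylate synthetase-like antiviral protein, had 126, 156 and 194 CPM as its lowest, median and highest LDRG values against 36.5, 49.5 and 88.3 CPM in con/ko. The sets did not overlap, and the difference was -1.54 (SE 0.18, edgeR adjusted p = 5.03e-05). Rtp4, a chaperone that restrains RNA viruses, was at 9.72, 13.7 and 23.7 CPM against 5.14, 6.47 and 8.03 CPM, again without overlap. It fell by 1.26 (SE 0.21, edgeR adjusted p = 0.00052). Ifi44 fell by 1.56 (adjusted p = 0.0035), and the RNA-activated kinase gene Eif2ak2 (0.81), Mx2 (0.73) and Xaf1 (0.70) were the other effectors that fell. Mx2 is annotated as a polymorphic pseudogene in the gene annotation used for positions. Non-overlap in the lower direction held for 3 members, Oasl2, Rtp4 and Eif2ak2, or 8.57%, against 12.8% of genes.

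Regulators fell too. Stat2, the type I signalling factor, ranged over 119.8, 141 and 165 CPM in LDRG and over 64.7, 84.8 and 128 CPM in con/ko libraries. Its difference was -0.70 (SE 0.13, edgeR adjusted p = 0.00116). Its partner Irf9 was at -0.40 (SE 0.12, adjusted p = 0.0175) and Irf7, the factor that amplifies type I interferon production, at -0.98 (SE 0.29, adjusted p = 0.0156). Usp18, which removes Isg15 from proteins and dampens receptor signalling, ranged over 9.05, 13.8 and 18.6 CPM and over 2.44, 3.17 and 15.4 CPM. It fell by 1.44 (SE 0.38, adjusted p = 0.00813), and again con_FL_1 alone stood among the LDRG values. Dtx3l, a ubiquitin ligase that works with Parp9, also fell (-0.63, adjusted p = 0.0237), while Parp9 itself did not pass (-0.20, SE 0.22).

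Of the sensing genes the RNA helicase Ifih1 (-0.62, SE 0.21, edgeR adjusted p = 0.0297) and Trim25 (-0.39, SE 0.13, adjusted p = 0.0244), a ubiquitin ligase of RNA sensing, fell. Of the GTPases Igtp did (-0.88, SE 0.30, adjusted p = 0.0316), and of antigen processing 0 of 3 passed. Not every effector was lower: Isg15, the ubiquitin-like modifier, was at 0.13 (SE 0.37), Ifit2 at 0.32 (SE 0.16) and Oas2 at 0.43 (SE 0.19). Psmb9, an immunoproteasome subunit, was at 0.20 (SE 0.32). None of these 4 passed. Against the C-coded con/ko libraries alone the same contrast gave 28 lower and 0 higher, and against the L-coded alone 7 lower and 3 higher, with 40.6% and 41.7% of genes called. Many cell markers moved with the set, where 25.9% of genes rose and 21.1% fell. Of neuron markers 6 of 8 fell. Those that rose were 10 of 11 macrophage, 5 of 5 monocyte, 8 of 8 neutrophil, 6 of 6 red cell, 4 of 5 B cell, 4 of 5 Schwann cell and 5 of 6 endothelial markers. Fewer did on other lists, with 3 of 11 T and NK cell and 3 of 5 plasmacytoid dendritic cell markers. Of 5 satellite glia markers 1 rose and 2 fell, and 0 of 6 skeletal muscle markers were called. Macrophage sums were 71.4 to 88.1 CPM in LDRG and 144 to 253 CPM in con/ko libraries. The part of these cells in the difference was not tested.

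The code letters divided the con/ko libraries. With genotype as a term, 3 of 35 members (8.57%) fell in the 4 C-coded against the 3 L-coded libraries and 0 rose, where 1.35% of 16481 genes were called and 1.24% were called lower. The median difference was -0.66 over members and 0.00 over all genes tested, with 34 of 35 members below 0, against 49.4% of genes. The C-coded libraries lay below each L-coded library for 19 members (54.3%), against 13% of genes. The median was -0.39 without con_FL_1, the library highest for most members, -0.28 without con_FC_3 and -1.14 without ko_ML_2.

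Of the 5 roles antigen processing had the lowest median, -1.29 over its 3 genes. Psmb9 was at 3.05 CPM in con_FC_3, 4.24 in ko_FC_1, 5.44 in ko_FC_2 and 3.83 in ko_MC_2, against 10.4 in con_FL_1, 8.04 in con_ML_2 and 11.9 CPM in ko_ML_2. No C-coded value reached an L-coded one, in either genotype. It fell by 1.49 (SE 0.18, 2.80-fold lower, edgeR adjusted p = 0.0341). Psmb8, another immunoproteasome subunit, was at 8.003, 10.6, 14.6 and 11.7 CPM in the C-coded libraries in the same order, and at 26.2, 19.1 and 22.04 CPM in the L-coded. Tap1, which carries peptides into the endoplasmic reticulum, was at 8.75, 11.4, 11.2 and 10.2 against 35.1, 18.2 and 22.1 CPM. Neither passed (Psmb8 -1.14, SE 0.21, adjusted p = 0.0526; Tap1 -1.29, SE 0.26, adjusted p = 0.0637), although their libraries did not overlap.

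Rsad2 (viperin), an antiviral enzyme, was at 12.7, 13.3, 12.8 and 12.6 CPM in the C-coded libraries and at 36.7, 23.5 and 28.6 CPM in the L-coded. The C-coded values lay close together and well under the L-coded. Rsad2 fell by 1.18 (SE 0.16, 2.27-fold lower, edgeR adjusted p = 0.0396). Trim25 was at 37.8, 34.1, 34.7 and 36.1 CPM against 60.7, 50.2 and 52.3 CPM, and fell by 0.56 (SE 0.09, adjusted p = 0.0449). Zbp1, a sensor of left-handed nucleic acid, was at 1.33, 1.28, 1.90 and 1.63 CPM against 6.35, 4.604 and 3.64 CPM (-1.58, SE 0.28, adjusted p = 0.0516). Its groups did not overlap, and the difference did not pass.

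Among the GTPases, with a median of -1.01, Gbp2 was at 12.2, 15.8, 20.3 and 13.6 CPM against 115.6, 23.1 and 36.3 CPM. The value of con_FL_1 was several times that of the other L-coded libraries, and the SE was correspondingly wide (-1.77, SE 0.64, adjusted p = 0.197). Igtp, whose product loosens the vacuoles of intracellular parasites, was at 19.6, 16.7, 20.8 and 20.4 CPM against 68.3, 25.6 and 34.2 CPM. It did not pass (-1.02, SE 0.35, adjusted p = 0.177). Mx1 was at 1.01, 1.10, 1.81 and 0.646 CPM against 6.54, 2.47 and 2.60 CPM (-1.60, SE 0.55, adjusted p = 0.178). Effectors such as Ifit1 (-0.60, SE 0.58), Ifit3 (-0.80, SE 0.80) and Usp18 among the regulators (-0.74, SE 0.71) overlapped between letters, since con_ML_2 and ko_ML_2 were near the C-coded level. For Ifit1 these 2 were at 21.2 and 15.6 CPM, with the C-coded at 14.6 to 23.9 CPM.

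Pairs of libraries with the same genotype and the same F or M letter give the same direction, with 1 library a side and no test. From con_FL_1 to con_FC_3 the members had a median of -1.50 and 35 of 35 were lower. From ko_ML_2 to ko_MC_2 the median was -0.36 and 34 of 35 were lower. A pair within the letter L was as one-sided. From con_ML_2 to con_FL_1, both flox but M and F, the median was 0.71 and 35 of 35 were higher. Single pairs therefore do not set the letters apart from other differences between libraries. The 3 calls were lost when the F or M letter was added to the fit (0 called). In that fit 0.0849% of genes were called, against 1.35% in the main fit. Its median over members was -0.97, with 35 of 35 below 0. The calls were also lost without con_FC_3, ko_FC_1, ko_MC_2 or ko_ML_2 (0 each, with 0.449%, 0.122%, 0.0977% and 0.0735% of genes called). Without con_ML_2 or ko_FC_2 1 was called each, with 0.102% and 0.671% of genes called. Without con_FL_1 7 were called, with 3.21% of genes called. With no filter beyond 1 count or a minimum mean of 5 CPM, 0 members passed, with 0.081% and 0.0988% of genes called. DESeq2 called 9, with 8.93% of genes called.

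Some lists of immune cell markers differed between the letters, and others overlapped. The neutrophil list summed to 126 to 241 CPM in the C-coded and 423 to 2257 CPM in the L-coded libraries. The monocyte list (5 genes) summed to 35.4 to 56.4 CPM and 81.2 to 273 CPM, and the B cell list (5 genes) to 43.4 to 61.2 CPM and 73.8 to 104 CPM. The T and NK cell list (11 genes) summed to 2.96 to 5.15 CPM and 5.68 to 12.6 CPM. The macrophage list (11 genes) overlapped, at 144 to 161 CPM and 156 to 253 CPM, as did the neuron list. The red cell list overlapped too, at 1778 to 2887 CPM and 1633 to 4469 CPM. So did the plasmacytoid dendritic cell list (5 genes), at 20.7 to 54.3 CPM and 44.1 to 53.3 CPM. Of single genes, 8 of 8 neutrophil and 1 of 5 monocyte markers were called lower, where 1.24% of genes were. None was called of the B cell, T and NK cell, macrophage and red cell markers. None of the genes on these lists was at 0 in all libraries of either letter. Among the L-coded libraries the neutrophil sum was 423 CPM in con_FL_1, 1107 CPM in con_ML_2 and 2257 CPM in ko_ML_2. Of the con/ko libraries con_FL_1 was highest for 33 of the 35 members, and ko_ML_2 for 1, Psmb9. The part of these cells in the difference was not tested.

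**Figure D3:**
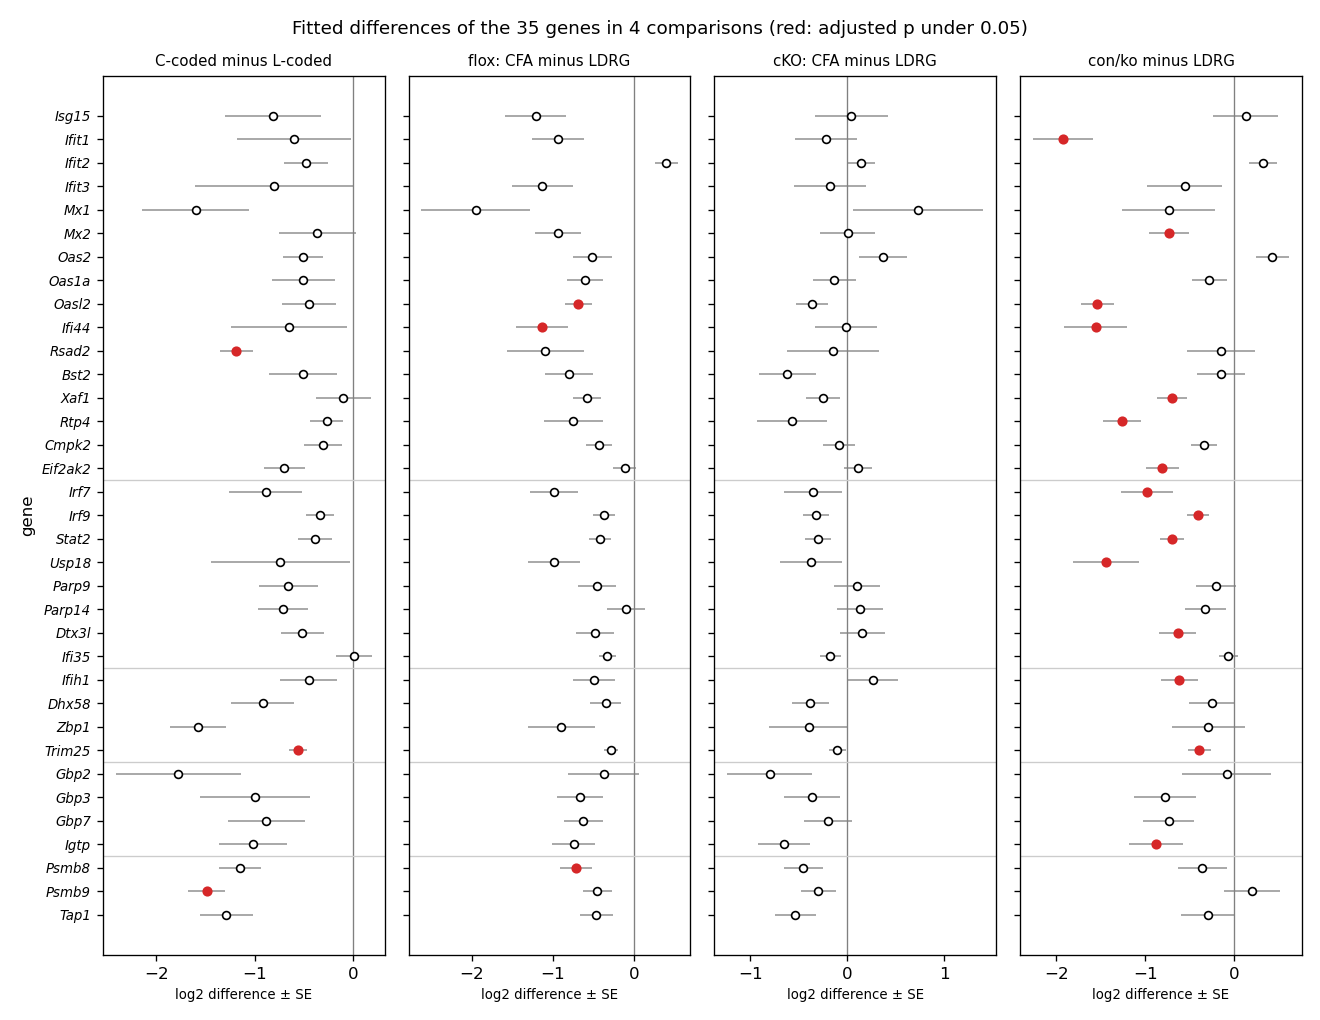
Points are fitted log2 differences with bars of 1 SE for the 35 genes (rows, by role) in 4 comparisons, with adjusted p under 0.05 in red. Most points lie left of 0 in the C-coded against L-coded, flox CFA and con/ko panels, and the red points number 3, 3, 0 and 15 from left to right.

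The study's own contrast, cKO against flox, left 0 of 35 members called in untreated ganglia. In the LDRG set edgeR called 0.0187% of 16050 genes and 0 members, and DESeq2 0.305% of genes and 0 members. At an unadjusted p under 0.05 (edgeR) there was 1 member. The share of all genes at that cut was not counted, here or below, so such counts have no background. The median was -0.17 over members and 0.00 over genes tested, with 31 of 35 members below 0, against 51% of genes. Oas2, a synthetase that activates RNase L, had the smallest p. It was at 2.71, 3.46 and 2.72 CPM in flox and at 1.37, 2.61 and 1.66 CPM in cKO libraries. The groups did not overlap, which held for 5.11% of genes in this direction, and the difference was -0.66 (SE 0.26, edgeR adjusted p = 0.991). Oas1a (-0.32, SE 0.16), Ifih1 (-0.44, SE 0.25) and Trim25 (-0.16, SE 0.10) came next, also at adjusted p = 0.991. The direction of the median turned without WT2_LDRG (0.015 on the log2 scale) and the median reached -0.42 without KO2_LDRG.

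In the con/ko set edgeR called 0.243% of 16481 genes and 0 members, and 2 members had an unadjusted p under 0.05. DESeq2 called 1.31% of genes and 0 members. The median was -0.47 over members and 0.01 over genes, with 34 of 35 members below 0, against 47.6% of genes. Skeletal muscle markers (6 genes, summed) moved with genotype here, at 373 to 774 CPM in flox and 2.56 to 11.1 CPM in cKO libraries, with 4 of 6 called lower, and their part was not tested. Dtx3l was at 16.0, 36.2 and 22.8 CPM in flox and at 13.6, 13.9, 13.3 and 15.6 CPM in cKO libraries. It was the sole member without overlap, where 4.29% of genes had none (-0.82, SE 0.24, edgeR adjusted p = 0.56). Parp14 (-0.73, SE 0.31, adjusted p = 0.752), Ifi44 (-1.02, SE 0.48, adjusted p = 0.778) and Usp18 (-1.17, SE 0.56, adjusted p = 0.782) followed. The letter C goes partly with genotype here, in 3 of 4 cKO and 1 of 3 flox libraries. With the letter C or L as a term the median was -0.15, with both letters 0.08, and without con_FL_1 it was 0.01. Without con_FC_3 it was -0.76, and edgeR called 0 members and 0.18% of genes. There 21 members had an unadjusted p under 0.05, with no share of all genes counted at that cut. Among C-coded libraries, where 3 cKO stand against con_FC_3, the median of cKO minus flox was 0.19 and 29 of 35 members were above 0. Among the L-coded, where ko_ML_2 stands against 2 flox libraries, it was -0.51 with 33 below 0.

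The genotype difference was also compared between the sets. The edgeR test of cKO minus flox in con/ko against that in LDRG libraries called 0 of 35 members and 0.00599% of 16706 genes. At an unadjusted p under 0.05 there were 0 members, and DESeq2 called 0 members and 0.257% of genes. Gbp2 was at -1.62 (SE 1.001), Parp14 at -0.59 (SE 0.46), Gbp7 at -0.72 (SE 0.58) and Gbp3 at -0.85 (SE 0.71), each at an edgeR adjusted p of 1. The median over members was -0.29, and with 1 library left out it ran from -0.58 (without con_FC_3) to 0.17 (without con_FL_1).

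CFA libraries labelled flox were compared with flox LDRG libraries, which lie in the same table. Of 35 members 3 fell (8.57%) and 0 rose, where edgeR called 6.82% of 16605 genes and 3.05% as lower. The median was -0.61 over members and 0.00 over genes tested, with 34 of 35 members below 0, against 50.3% of genes. All 4 CFA libraries lay below the 3 LDRG libraries for 14 members (40%), against 10.6% of genes. The median was -0.39 without WT2_LDRG.

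Oasl2 was at 75.5, 115, 106 and 120.3 CPM in CFA_WT1 to CFA_WT4 and at 194, 182 and 129 CPM in WT1_LDRG to WT3_LDRG. CFA values were lower without overlap, and Oasl2 fell by 0.69 (SE 0.16, 1.61-fold lower, edgeR adjusted p = 0.025). Psmb8 was at 11.9, 11.46, 14.95 and 14.9 CPM against 25.7, 24.1 and 16.0 CPM. WT3_LDRG lay close to the CFA values, and Psmb8 fell by 0.72 (SE 0.20, adjusted p = 0.0488). Ifi44 was at 3.81, 4.77, 6.01 and 6.15 CPM against 15.03, 12.6 and 6.59 CPM. Here too WT3_LDRG was just above the CFA range, and Ifi44 fell by 1.13 (SE 0.32, adjusted p = 0.0496).

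Several effectors and regulators with larger differences did not pass. Isg15 was at 2.75, 2.54, 2.97 and 4.18 CPM against 6.17, 11.2 and 4.33 CPM, without overlap (-1.21, SE 0.37, edgeR adjusted p = 0.0708). Irf7 was at 6.74, 13.9, 9.73 and 15.1 CPM against 26.2, 27.6 and 14.3 CPM, where CFA_WT4 exceeded WT3_LDRG (-0.99, SE 0.30, adjusted p = 0.0633). Mx1 was at 1.55, 0.802, 1.36 and 1.44 CPM against 4.23, 9.19 and 1.56 CPM (-1.95, SE 0.67, adjusted p = 0.0994). Ifit2 was the sole member above 0 (0.40, SE 0.14, adjusted p = 0.105), with the CFA libraries above the LDRG libraries, as for 10.5% of genes. The 3 calls did not hold without WT1_LDRG, WT2_LDRG or CFA_WT1 (0 each, with 3.69%, 2.75% and 4.29% of genes called). Without CFA_WT2 or CFA_WT3 1 was called each, with 4.96% and 8.33% of genes called. Without WT3_LDRG 8 were called, with 5.28% of genes called. DESeq2 called 12, with 11.6% of genes called, and 1 passed with no filter beyond 1 count, with 4.97% of genes called.

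In libraries labelled cKO the same contrast called 0 of 35 members and 2.61% of genes, with 6 members at an unadjusted p under 0.05. DESeq2 called 0 members and 7.78% of genes. The median was -0.20 over members, with 25 of 35 below 0 against 50.5% of genes, and from -0.38 (without CFA_CKO4) to 0.01 (without KO2_LDRG) with 1 library left out. Tap1 was at 15.04, 13.4, 14.2 and 17.5 CPM in CFA_CKO1 to CFA_CKO4 and at 17.0, 29.1 and 19.2 CPM in KO1_LDRG to KO3_LDRG (-0.54, SE 0.21, edgeR adjusted p = 0.169). KO2_LDRG was highest, and CFA_CKO4 lay above KO1_LDRG. Oasl2 and Psmb9 (5.71% of members) were lower in CFA without overlap, against 9.84% of genes. Igtp (-0.65, SE 0.27, adjusted p = 0.19), Irf9 (-0.33, SE 0.13, adjusted p = 0.191) and Stat2 (-0.30, SE 0.13, adjusted p = 0.219) came next.

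Other untreated libraries were also put in place of LDRG. With the 2 L-coded or the 2 F-coded flox con/ko libraries the flox contrast had a negative median (-0.54 and -0.37) with 9 and 1 members lower, and 28% and 22.8% of genes called. With the 2 F-coded cKO libraries the cKO contrast had a positive median (0.58) with 7 members higher, and 31.6% of genes called. A single L-coded cKO library, ko_ML_2, gave a median of 0.32, with 3 higher and 1 lower and 16.8% of genes called. In that fit the lone library is assumed to vary like the other groups. Placed beside the letters, the 8 CFA libraries lay above the 4 C-coded libraries for 12 members (34.3%, against 14.8% of genes), among them Ifit1, Oasl2, Stat2, Ifih1, Igtp and Tap1, and below them for 0, against 15.7%. They lay below the 3 L-coded libraries for 4 members (11.4%, against 17.9%): Oas2, Bst2, Psmb8 and Psmb9, and above them for 0, against 15.5%. They lay below the 6 LDRG libraries for 1 member, Oasl2, against 2.73% of genes. Markers moved with the set as well. The neutrophil and monocyte lists were higher in CFA (33.7 to 111 and 20.6 to 38.5 CPM) than in LDRG libraries (1.61 to 5.62 and 14.96 to 19.0 CPM). So were the macrophage (96.9 to 124 against 71.4 to 88.1 CPM) and red cell lists (207 to 625.4 against 34.1 to 54.1 CPM). Skeletal muscle sums overlapped, at 1.21 to 87.5 CPM in CFA and 2.08 to 615 CPM in LDRG libraries. Of these markers 6 of 6 were below 0 in both genotypes. The part of these cells in the result was not tested.

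**Figure D4:**
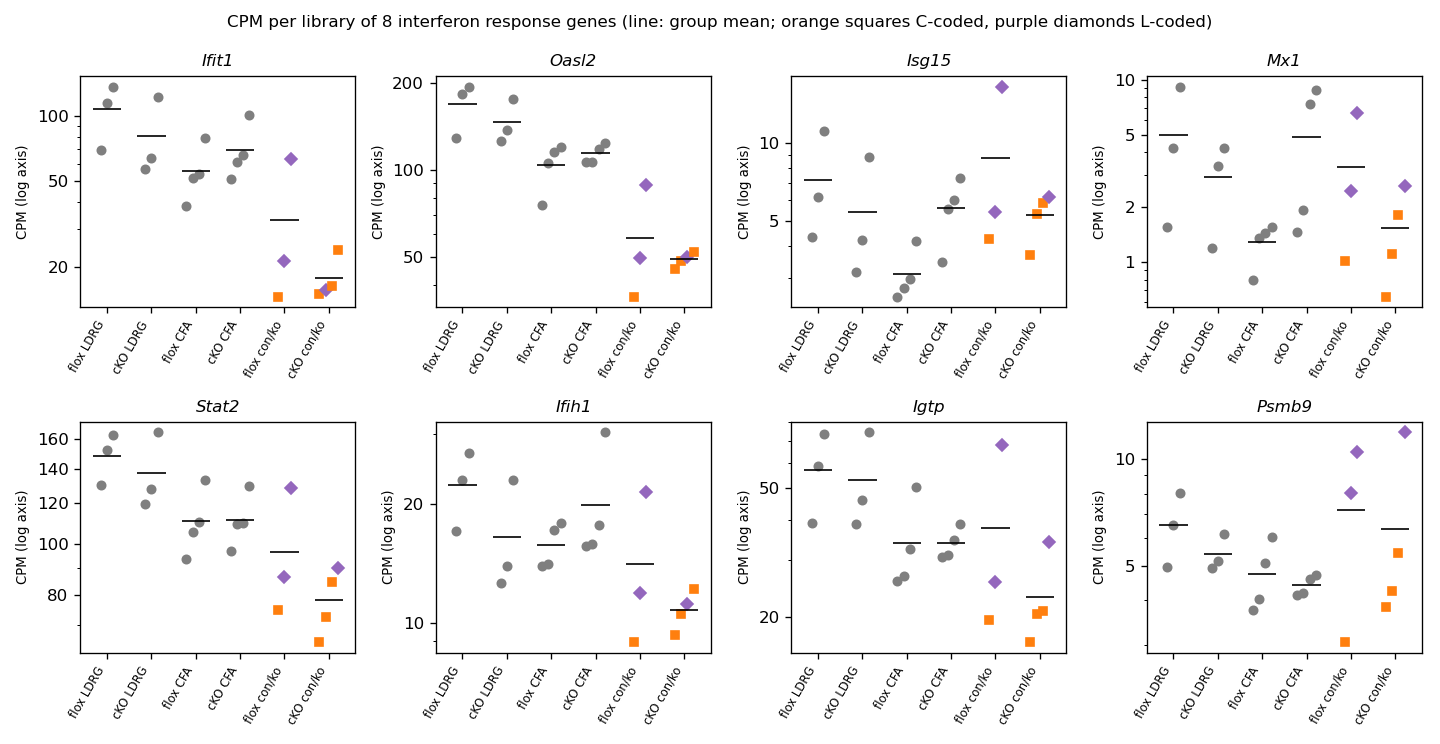
CPM on a log axis of 8 genes in each library by group, with lines at group means, orange squares for C-coded and purple diamonds for L-coded libraries. Oasl2 lies at 126 CPM or more in LDRG, at 75.5 to 124 CPM in CFA and at 36.5 to 88.3 CPM in con/ko libraries, while the C-coded and L-coded values of Psmb9 are apart.

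Among the CFA libraries, those labelled cKO were set against those labelled flox. edgeR called 0% of 16116 genes and 0 members, 7 members had an unadjusted p under 0.05, and DESeq2 called 0 members and 0.112% of genes. The median was 0.23 over members and 0.01 over genes, with 31 of 35 members above 0, against 52.5% of genes. Ifit2 had the smallest p and was at 5.51, 5.05, 4.83 and 5.64 CPM in CFA_WT1 to CFA_WT4 and at 3.28, 4.18, 3.73 and 4.40 CPM in CFA_CKO1 to CFA_CKO4. It was lower in cKO without overlap, as were 1.61% of genes (-0.43, SE 0.12, edgeR adjusted p = 0.938). Isg15 was at 6.003, 3.45, 5.54 and 7.34 CPM in cKO (0.84, SE 0.24, adjusted p = 0.938), overlapping with CFA_WT4. Mx1 was at 7.35, 1.46, 1.94 and 8.77 CPM in cKO (1.92, SE 0.56, adjusted p = 0.938), where CFA_CKO1 and CFA_CKO4 were high and the other two near the flox values. Ifi44 was at 0.62 (SE 0.21, adjusted p = 0.938). Without CFA_CKO4 the median was 0.10 and 21 of 35 members were above 0.

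The genotype difference in CFA minus that in LDRG libraries called 0 of 35 members and 0% of 16605 genes by edgeR. At an unadjusted p under 0.05 there were 5 members. DESeq2 called 0 members and 0.151% of genes. The median was 0.33, with 31 of 35 above 0, against 50.7% of genes. It was 0.19 without WT2_LDRG and 0.63 without KO2_LDRG. Mx1 was at 2.68 (SE 0.95), Oas2 at 0.89 (SE 0.34), Ifi44 at 1.12 (SE 0.45) and Mx2 at 0.94 (SE 0.40), each at an edgeR adjusted p of 0.942. The CFA minus LDRG differences of flox and cKO were therefore not shown to differ for any member. The difference for Mx1, the largest of these 4, rests on the gene with the widest spread between replicates.

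Genes upstream and downstream of the members came from lists of 106 pathway genes, of which 95 were tested. Of 10 interferon ligands, 6 had 0 counts in all 21 libraries, among them Ifnb1. Ifng, the gene of interferon gamma, had 28 counts in 6 libraries, at most 7 in one, and Ifna2, Ifne and Ifnk had 7, 3 and 3 counts, each in a single library. These levels are too low to compare. All 6 receptor genes were tested. Ifnar1, a chain of the type I receptor, was at 65.3 to 75.8 CPM in LDRG, 60.6 to 80.6 in CFA and 50.02 to 77.0 CPM in con/ko libraries, and Ifngr1 rose in con/ko against LDRG (0.33, SE 0.06, edgeR adjusted p = 0.000509) as Ifnar2 did (0.30, SE 0.07, adjusted p = 0.00384). They are 2 of the 6 receptor genes, where 25.9% of all genes rose. These 2 receptors and the members that fell went in opposite directions. In flox CFA libraries Ifnlr1 rose and Il10rb fell, where 6.82% of genes were called.

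Of 10 JAK-STAT and IRF genes, 4 rose and 2 fell in con/ko against LDRG, where 25.9% of genes rose and 21.1% fell. Irf3 (0.56, SE 0.06, edgeR adjusted p = 1.9e-05) and Tyk2 (0.31) rose, and Jak1 fell (-0.29, SE 0.06, adjusted p = 0.00335). Irf8, a factor of myeloid cells, was the 1 of 10 that fell in C-coded libraries (-2.37, SE 0.36, edgeR adjusted p = 0.0449), where 1.24% of genes did. It was at 1.82 to 4.49 CPM against 8.72 to 15.6 CPM in L-coded libraries, beside the monocyte and neutrophil sums given above. Of 5 inhibitors, Socs1 and the myeloid phosphatase gene Ptpn6 rose in con/ko against LDRG, where 25.9% of genes rose. Socs3 fell in flox CFA libraries (-0.72, SE 0.17, edgeR adjusted p = 0.0217), where 3.05% of genes fell. Of 11 sensors and adaptors 5 rose, against the same 25.9% of genes, and 1 fell, against 21.1%. The 1 was Ddx58, the gene of the RNA sensor RIG-I (-0.86, SE 0.13, adjusted p = 0.000239). Sting1, the adaptor of DNA sensing, fell in C-coded libraries (-0.97, SE 0.15, edgeR adjusted p = 0.0449) and in flox CFA libraries (-0.66, SE 0.13, adjusted p = 0.00977), where Ticam1 fell too. That is 1 and 2 of the 11, against 1.24% and 3.05% of genes.

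Another 63 interferon targets outside the members were tested. In con/ko against LDRG 10 rose and 10 fell, against 25.9% and 21.1% of genes. In C-coded against L-coded libraries 5 of 63 fell, where 1.24% of genes were called lower, and 0 rose, with a median of -0.62. Cxcl9, a chemokine induced by interferon gamma, was at 0.194 to 0.837 CPM in C-coded and 3.96 to 7.97 CPM in L-coded libraries (-4.23, SE 0.45, edgeR adjusted p = 0.0275). Oas3 (-2.29, SE 0.24, adjusted p = 0.0275) and Sp100 (-0.94, SE 0.12, adjusted p = 0.0376) fell as well. In flox CFA libraries 2 of 63 fell and 0 rose, near the share of all genes, of which 3.05% were called lower. The 2 were Lgals3bp (-0.43, SE 0.11, edgeR adjusted p = 0.0275) and B2m, the light chain of MHC class I (-0.73, SE 0.19, adjusted p = 0.0353). In cKO CFA libraries 1 of 63 fell, Tapbpl (-0.28, SE 0.07, edgeR adjusted p = 0.0402), where 2.61% of genes were called. For the genotype contrasts and both tests of their difference, 0 of the 95 pathway genes passed.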

How the data were processed

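Bulk RNA from dorsal root ganglia was enriched for poly-A, reverse transcribed and read as paired reads, per the labels' protocols. The authors deposited unnormalized counts of reads for each gene, in 1 table of 14 libraries (LDRG and CFA, 24524 genes) and another of 7 (con/ko, 24512 genes). fastp 0.23.2, BWA 2.2.1, SAMtools 1.14, DESeq2 1.40.2 and build mm10 are named in the submitters' processing notes, and for the counter no name is given in the sources used here.

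Fits within 1 table used all genes of that table, and fits across both used the 24381 shared genes, in edgeR 4.0.16 (R 4.3.3). Low genes were removed by filterByExpr with a minimum of 10 and a total of 15, libraries were scaled by TMM, and quasi-likelihood tests were adjusted by Benjamini and Hochberg's method across every gene tested, with calls at adjusted p under 0.05. All 35 members passed the filter in each comparison. CPM uses TMM-adjusted library sizes over the 21 libraries, and the SE is the log2 difference divided by the square root of F. Each name set and CFA was fitted alone for genotype, the CFA and LDRG libraries in 1 fit of 14, and the untreated libraries in 1 fit of 13. Tests were checked on simulated counts with known changes. In each comparison the members called are named, or the 4 with the smallest p where fewer than 4 were called. The 14 members Isg15, Ifit1, Ifit3, Mx1, Oas2, Irf7, Usp18, Stat2, Ifih1, Zbp1, Gbp2, Igtp, Psmb8 and Tap1 are given besides, and up to 3 called genes per pathway list. Members and lists were chosen with earlier results of these data known, so counts over them are descriptions. Alternatives were RLE size factors, DESeq2 1.42.0, other filters, a replicate block, letters as terms, other untreated libraries and leaving out each library. Replicate numbers did not pair the libraries: same-numbered deviations correlated at -0.14 to 0.32, not above 0.1 in each pair of any set. No 2 replicates agreed within sampling noise (chi-square per degree of freedom 26.9 to 150.4 over 27 pairs). Positions are from GENCODE vM21. One gene of the pathway lists is not reported here.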

Additional observations from a re-analysis of the deposited data

Results flagged for a closer look

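In the groups of 4 libraries, a value was singled out where its gap to the nearest other value exceeded 0.829 of the group's range. This occurred for 11 of 105 combinations of member and group. Chance gives about 1 in 20 for normally distributed values, and the rule was applied to CPM, which need not be normal. Members also varied together across libraries, so the combinations are not independent and no excess is read from this count. In the cKO con/ko group, ko_ML_2 was highest for Rsad2 (28.6 CPM against 12.6 to 13.3), Trim25 (52.3 against 34.1 to 36.1) and Tap1 (22.1 against 10.2 to 11.4). It is the sole L-coded library of that group. ko_FC_2 was highest there for the neighbouring genes Ifit1 (23.9 CPM against 15.1 to 16.4) and Ifit3 (41.3 against 24.9 to 27.3), and ko_MC_2 was lowest for Rtp4 (5.57 CPM against 6.45 to 6.55). In the CFA group labelled cKO, CFA_CKO4 was highest for 3 of the 4 sensing genes, Ifih1 (30.3 CPM against 15.7 to 17.7), Dhx58 (4.98 against 3.75 to 3.94) and Zbp1 (4.52 against 1.89 to 2.05), and CFA_CKO3 for Bst2 (11.3 against 8.18 to 8.59). In the CFA group labelled flox, CFA_WT4 was highest for Gbp3 (35.99 CPM against 19.3 to 21.3).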

How the results depend on the processing

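Counts of members called and median log2 differences were recomputed under each alternative. Of the medians, 80 moved by less than the spread between replicates and 2 by more when 1 library was left out, and 49 and 4 did so under the other settings. That spread, the SD of library medians, was 0.266 to 0.541, which exceeds some of the medians. These counts are therefore no measure of stability, and a change of sign can fall within the spread. The LDRG genotype median, for example, went from -0.168 to 0.015 without WT2_LDRG. The cause was not tested for the changes below. For C-coded against L-coded libraries (3 called), 0 were called with no filter beyond 1 count or with a mean of at least 5 CPM. The F or M letter as a term also left 0, with a median of -0.97. These fits called 0.081%, 0.0988% and 0.0849% of genes, in this order. Without the genotype term 6 were called and by DESeq2 9, with 3.57% and 8.93% of genes called, against 1.35% in the main fit. Leaving out 1 library gave 0 to 7 calls and medians of -1.141 to -0.28. For flox CFA against LDRG (3 called), 1 was called with no filter beyond 1 count, 12 by DESeq2, 7 with the replicate block, 9 with L-coded and 1 with F-coded libraries in place of LDRG, and 0 to 8 with 1 library left out. In that contrast DESeq2 called 11.6% of genes and the fit with the replicate block 4.44%, against 6.82% in the main fit. Oasl2 turned to 0.628 there with L-coded and 0.738 with F-coded libraries, and Ifi44 to 0.028 with F-coded. For cKO CFA (0 called) the single L-coded cKO library, an arm of 1 assumed to vary like the other groups, gave 4 calls and a median of 0.322, with Irf9 at 0.105 and Stat2 at 0.322. F-coded libraries gave 7 calls, with 31.6% of genes called, and a median of 0.581, with Igtp at 0.843, Irf9 at 0.175, Stat2 at 0.694 and Tap1 at 0.403. For the con/ko genotype the median turned to 0.084 with both letters as terms. Against LDRG, C-coded libraries alone gave 28 calls and a median of -0.999. In the difference of genotype effects between sets, leaving out 1 library gave -1.222 to 0.231 for Gbp3 and -1.043 to 0.056 for Gbp7. Replicate numbers are shared by groups without pairing them. With the replicate block 0 members were called for genotype in LDRG, con/ko and CFA (medians -0.163, -0.494 and 0.241), for cKO CFA (-0.313) and for the interaction with CFA (0.358), and the flox CFA median was -0.715. Not every library correlated best with its own number. Replicates differed by more than sampling noise at these depths.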
